A study of Mus musculus with 111 samples.

Results

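The genes described here are 8 genes of the integrated stress response: Atf4, Chac1, Ddit3, Atf3, Trib3, Asns, Sesn2 and Ppp1r15a. They were chosen by name from 36125 genes measured, with earlier results of these data known. Their RNA was followed as counts per 1000000 counts of a library (CPM) in single mouse embryos at the 2-cell stage. All embryos were of strain B6129F1. Knockdown embryos came from germinal vesicle oocytes injected with a pair of siRNAs against Nr5a2, at 20 µM each, and with 150 ng/µl of H2B-rsEGFP, a marker of injection. Control embryos came from oocytes that received control siRNAs and 150 ng/µl of H2B-EGFP, so the injected marker also differed between the arms. Oocytes of both arms were isolated in M2 medium with dbcAMP, which holds meiosis in arrest, and fetal bovine serum, kept in M16 with dbcAMP over 5 hours after injection and left without it over 12 hours. Fertilization was in vitro, in medium supplemented with glutathione, and culture was in KSOM. There were 16 knockdown and 24 control embryos in experiment 1, 16 knockdown and 7 control embryos in experiment 2, and 23 knockdown and 25 control embryos in experiment 3, in all 55 and 56. Each library was made from 1 whole embryo, so a gene active in fewer cells and less of its RNA in every cell cannot be told apart. Which mothers or fertilizations the embryos came from is not labelled, so the p-values measure the spread between these embryos.

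The integrated stress response links several kinds of stress to one switch in protein synthesis. Kinases that sense amino acid shortage, unfolded protein in the endoplasmic reticulum, double-stranded RNA or haem shortage phosphorylate the initiation factor eIF2, which lowers general translation and favours translation of the Atf4 mRNA. The ATF4 protein then drives transcription of genes for amino acid supply, redox balance and feedback, so that the level of Atf4 mRNA itself says little about ATF4 activity. In mouse, oocyte RNA is degraded and the embryo's own transcription begins in earnest at the 2-cell stage, so an RNA present at this stage can be inherited or newly made.

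ATF4 acts with C/EBP family partners at a composite element read here as TGATGNAA. It was searched on both strands in the RefSeq windows (GRCm38.p6) that run from 250 bases before to 50 bases after each gene's start, and all 8 genes had a window. The element was present in 4 of the 8 windows, those of Chac1, Atf3, Trib3 and Asns, and in 1304 of 32851 windows over all genes (3.97%). The 4 windows with the element are shown because an exact match in these windows was found for only part of a set usually read as 1 programme. An element outside the window, or one that differs from these letters, would not be found, so a gene without a match may still have one. Each is given 5′ to 3′ on the gene's strand with the match in capitals, and TTGCATCA and TTACATCA are the element read from the other strand.
Chac1 (chr2:119350992-119351291, plus strand): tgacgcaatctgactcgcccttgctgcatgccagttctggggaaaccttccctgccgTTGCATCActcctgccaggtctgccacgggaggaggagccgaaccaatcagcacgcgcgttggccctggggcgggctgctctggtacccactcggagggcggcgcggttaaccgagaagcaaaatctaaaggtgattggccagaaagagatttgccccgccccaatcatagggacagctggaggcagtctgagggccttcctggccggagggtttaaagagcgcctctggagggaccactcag
Atf3 (chr1:191183284-191183583, minus strand): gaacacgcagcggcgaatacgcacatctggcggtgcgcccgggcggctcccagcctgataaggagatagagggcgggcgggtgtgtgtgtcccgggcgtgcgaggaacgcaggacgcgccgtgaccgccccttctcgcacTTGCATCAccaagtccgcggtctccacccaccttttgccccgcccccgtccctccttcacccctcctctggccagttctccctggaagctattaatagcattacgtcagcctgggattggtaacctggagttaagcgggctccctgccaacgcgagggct
Trib3 (chr2:152344011-152344310, minus strand): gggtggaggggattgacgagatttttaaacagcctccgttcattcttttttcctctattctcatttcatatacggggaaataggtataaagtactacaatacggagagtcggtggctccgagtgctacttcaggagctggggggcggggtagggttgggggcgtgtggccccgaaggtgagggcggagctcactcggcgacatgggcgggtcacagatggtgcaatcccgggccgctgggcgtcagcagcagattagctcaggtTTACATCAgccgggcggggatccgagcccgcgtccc
Asns (chr6:7693160-7693459, minus strand): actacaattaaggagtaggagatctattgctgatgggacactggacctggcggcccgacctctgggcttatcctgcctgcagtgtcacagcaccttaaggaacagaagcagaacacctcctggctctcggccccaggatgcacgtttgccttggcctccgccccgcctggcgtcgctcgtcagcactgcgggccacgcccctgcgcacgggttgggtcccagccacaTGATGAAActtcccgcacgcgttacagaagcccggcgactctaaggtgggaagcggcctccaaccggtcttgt
The Atf3 window starts from the RefSeq start site used, which lies inside the longer GENCODE span of the gene. The match began 193 bases before the start in Chac1, 110 before it in Atf3 and 23 before it in Asns, and 14 bases after it in Trib3. These letters were not in the windows of Atf4, Ddit3, Sesn2 and Ppp1r15a. The cyclic AMP response element TGACGTCA, which does not overlap the composite element, was present in 1 of the 8 windows, that of Ppp1r15a at 12 bases before the start, and in 1.79% of all windows. A match of letters is a description of the sequence and does not show that a factor binds there.

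The total per library lay between 1.97 M and 21.4 M estimated counts (1 M is 1000000), with a median of 4.54 M in knockdown and 4.98 M in control embryos. Nr5a2, the targeted gene, averaged 48.6 ± 19.8 CPM in knockdown embryos and 109 ± 48.8 CPM in control embryos (SD, n = 55 and 56), or -1.17 on the log2 scale with an SE of 0.12 (edgeR quasi-likelihood test, adjusted p = 3.72e-12). Summed markers of the 2-cell stage (Zscan4, Zfp352, Tdpoz, Usp17-like and Tcstv genes, 10 of 10 detected) ran from 179 to 6130 CPM in knockdown and from 179 to 5730 CPM in control embryos. Of these 10 genes none was called, and Tdpoz4 had the smallest p (log2 fold change -0.29, SE 0.19, edgeR adjusted p = 0.723). Of 10 oocyte-deposited transcripts none was called, and Dppa3 had the smallest p (0.22, SE 0.11, edgeR adjusted p = 0.567). All 12 cumulus and granulosa cell markers had counts in at least 1 embryo, and their sum ran from 2.95 to 50 CPM in knockdown and from 4.02 to 46.8 CPM in control embryos. Tnfaip6, 1 of the 2 tested, averaged 8.45 CPM in knockdown and 8.30 CPM in control embryos (edgeR adjusted p = 0.693). The 6 sperm markers summed to a median of 1.15 CPM in knockdown and 1.52 CPM in control embryos. Transcripts of the mitochondrial genome made up a median of 7.61% of counts in knockdown and 6.89% in control embryos. Of these 13 transcripts 6 passed the test as higher and none as lower, where 0.632% of all genes tested were called higher and 0.469% lower. The smallest p-values among the 13 were those of mt-Nd2 (log2 fold change 0.44, edgeR adjusted p = 0.000815), mt-Nd3 (0.44, edgeR adjusted p = 0.0035) and mt-Co2 (0.42, edgeR adjusted p = 0.00664). The part of the mitochondrial share in the fold changes below was not tested, and correlations with it are given further on. 7 embryos stood apart, with a median Pearson's r with the other libraries of 0.637 to 0.733, against 0.762 to 0.875 for the other 104. 5 of the 7 were knockdown embryos and 2 were control embryos.

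The levels of the 8 genes spanned more than an order of magnitude. To compare genes, CPM were divided by the annotated transcript length in kb. On this per-length scale Ppp1r15a averaged 214 ± 92.5 and Atf4 206 ± 58.3 CPM per kb over all embryos (SD), which did not differ beyond their spread. Sesn2 followed at 108 ± 46.4, Ddit3 at 43.8 ± 31.5 and Trib3 at 35.2 ± 14.6 CPM per kb. The lowest were Atf3 at 8.02 ± 16.6, Chac1 at 7.35 ± 6.65 and Asns at 5.21 ± 3.88 CPM per kb, whose ranges overlapped widely. Atf4, Ddit3, Trib3, Sesn2 and Ppp1r15a had counts in every embryo. Atf3 was at 0 in 9 knockdown and 8 control embryos, where 3 counts would correspond to 0.219 to 1.17 CPM, a limit that covers counting error only. Asns was at 0 in 3 embryos of each arm, and Chac1 in 2 embryos of each arm. All 8 genes passed the filter on low counts, which left 13444 genes in the test.

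The main question was whether RNA of these genes differed in Nr5a2 knockdown embryos. No gene of the 8 passed the test (edgeR quasi-likelihood test with experiment as a factor, Benjamini-Hochberg adjusted over all genes tested, threshold 0.05), where 0.632% of all genes tested were called higher and 0.469% lower. Chac1 had the largest difference of the 8. Of the other 7, Ddit3 and Trib3 had positive and the remaining 5 negative log2 fold changes, all between -0.22 and 0.18. The median of the 8 was -0.034, against 0.019 over all genes tested.

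Chac1 (chr2:119351229-119354381, plus strand, GRCm38, GENCODE M21) encodes a gamma-glutamyl cyclotransferase that degrades glutathione and is a known target of the ATF4 branch. In experiment 1 it had 0.875 CPM in the lowest, 10.8 in the median and 37.8 in the highest knockdown embryo, against 0, 5.38 and 32.5 CPM in control embryos. In experiment 2 the lowest, median and highest values were 3.41, 16.5 and 48.0 CPM in knockdown embryos, against 0, 8.52 and 29.5 CPM in control embryos. In experiment 3 they were 0, 11.9 and 60.3 CPM in knockdown embryos, against 0.870, 6.62 and 21.2 CPM in control embryos. The ranges of the arms overlapped in each experiment, while the knockdown median was 2.00, 1.94 and 1.79 times the control median in experiments 1, 2 and 3. In all, 41 of 55 knockdown embryos lay above the control median of their own experiment, 12 of 16, 12 of 16 and 17 of 23 by experiment, and 8 lay above every control embryo of it (2, 2 and 4). Over all embryos Chac1 averaged 15.7 ± 12.4 CPM in knockdown and 8.41 ± 7.71 CPM in control embryos (SD, n = 55 and 56).

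**Figure D1:**
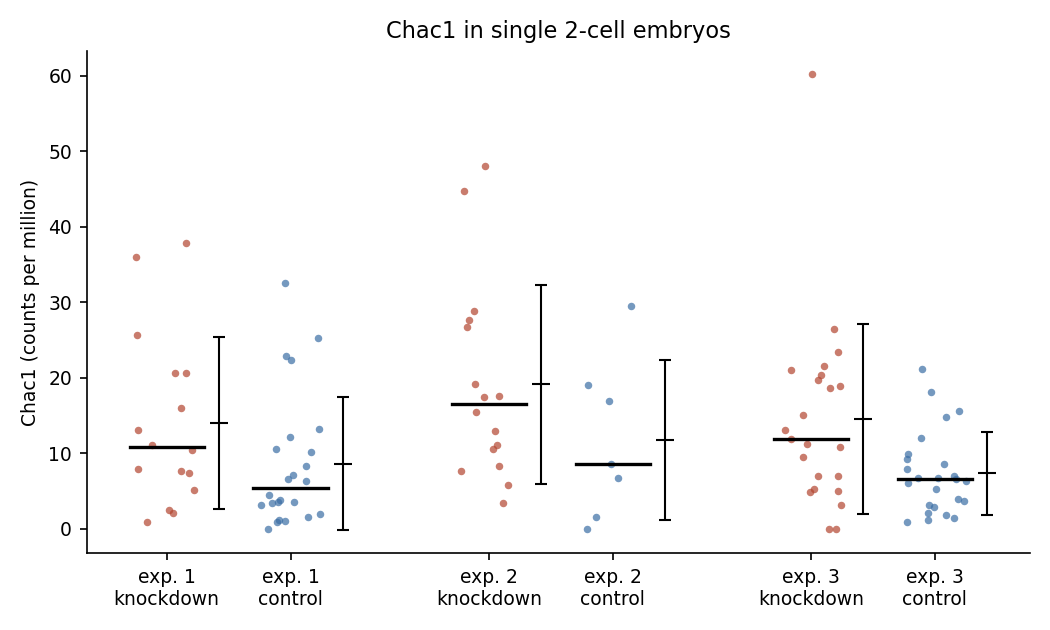
Chac1 RNA in CPM (vertical axis) in every embryo of the 6 groups, with the group median as a thick line and the mean ± SD beside it. Embryos of both arms spread from near 0 to 30 CPM or more in experiment 1, and the 3 embryos above 40 CPM, 2 in experiment 2 and 1 in experiment 3, are knockdown embryos.

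The log2 fold change of Chac1 was 0.83 (SE 0.26), a fold of 1.78 with a 95% confidence interval of 1.25 to 2.55. Its unadjusted p was 0.00182 and its adjusted p was 0.106 in edgeR's quasi-likelihood test, so it did not pass. DESeq2 on the same counts gave 0.84 (SE 0.25) with an adjusted p of 0.0472, which passed, and called 1.05% of the genes higher. Over the 14 alternatives tried the log2 fold change stayed between 0.69 and 0.89, with adjusted p-values from 0.0472 to 0.728, and only DESeq2 passed. Within the experiments the log2 fold changes were 0.72 (SE 0.43), 0.69 (SE 0.63) and 0.98 (SE 0.39), with edgeR adjusted p-values of 0.645, 0.999 and 0.529. In these within-experiment tests 0.922% of genes were called in experiment 1, 0% in experiment 2 and 0.149% in experiment 3. For the 0 calls in experiment 2, edgeR had 516 genes at an unadjusted p under 0.05, and fitting that experiment alone also gave 0. Those 516 of 13444 genes are a share below 0.05, the share that falls there if no gene differs. The responses of the 3 experiments were not shown to differ for Chac1 (interaction adjusted p = 0.994) or for any other of the 8 genes, where 0.0149% of all genes passed that test. Without the 2 and without the 7 embryos that stood apart the log2 fold change was 0.86 and 0.78, with edgeR adjusted p-values of 0.105 and 0.184.

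Chac1 counts came from a single annotated transcript, ENSMUST00000028780.3, of 1637 bases. In the fit over transcripts its log2 fold change was 0.81 with an SE of 0.27 and an edgeR adjusted p of 0.276, with 0.309% of 25260 transcripts called in either direction. In the authors' deposited table over all embryos the same transcript had a log2 fold change of 0.76 with an adjusted p of 0.208. In the authors' deposited table under a 10th percentile threshold these values were 0.78 and 0.21.

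Atf4 (chr15:80255184-80257541, plus strand), the transcription factor at the centre of the pathway, varied least. Its knockdown medians were 309, 354 and 337 CPM in experiments 1, 2 and 3, against control medians of 326, 336 and 373 CPM. Over all embryos it averaged 354 ± 98.5 CPM in knockdown and 353 ± 103 CPM in control embryos (SD, n = 55 and 56). The fold was 0.995 with a 95% interval of 0.882 to 1.12 (edgeR adjusted p = 0.995), and its direction flipped with the scaling: it was -0.01 on the log2 scale with TMM factors and 0.0032 with RLE factors. Its transcript ENSMUST00000109605.4 carried 99.3% of its counts. Its coefficient of biological variation, the spread beyond counting noise in the edgeR model, was 0.313, the lowest of the 8.

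Ddit3 and Atf3 encode stress-induced bZIP factors, CHOP and ATF3, that act downstream of ATF4. Ddit3 (chr10:127290774-127296288, plus strand) ran from 8.10 to 157 CPM with a median of 34.0 in knockdown embryos, against 7.31 to 147 with a median of 30.4 CPM in control embryos. The arms overlapped over nearly their whole range, and the fold was 1.13 (95% interval 0.882 to 1.45, edgeR adjusted p = 0.884). Ddit3 shares 68 exon bases, 3.97% of its exon length, with Mars on the opposite strand, and reads there cannot be told apart because the libraries do not record strand. Atf3 (chr1:191170296-191218039, minus strand) ran from 0 to 164 CPM with a median of 4.12 in knockdown embryos, against 0 to 194 with a median of 4.87 CPM in control embryos. Most embryos of both arms lay low and a few lay very high, and its coefficient of biological variation of 1.63 was higher than that of 98.8% of the 500 genes nearest in level. The highest embryo of each arm was among those that stood apart, with a median r of 0.713 in knockdown and 0.727 in control. A control embryo of experiment 3 with 106 CPM had 0.79 and was not among them. The part of this likeness in the Atf3 values was not tested. The fold was 0.871 (95% interval 0.469 to 1.62, edgeR adjusted p = 0.97). The log2 fold changes in experiments 1, 2 and 3 were 0.62 (SE 0.75), -1.79 (SE 1.03) and -0.19 (SE 0.68), and a difference between them was not shown (interaction adjusted p = 0.954). In experiment 2 the control mean of 18.6 ± 30.6 CPM (SD, n = 7) rested on 1 embryo at 86.6 CPM, and without that experiment the overall log2 fold change was 0.19 in place of -0.20.

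Trib3 and Ppp1r15a belong to the feedback arm. Trib3 encodes a pseudokinase that binds ATF4 and CHOP and restrains them, and Ppp1r15a encodes GADD34, the subunit that directs protein phosphatase 1 to phosphorylated eIF2. Trib3 (chr2:152337422-152344032, minus strand) had knockdown medians of 57.2, 100 and 69.8 CPM in experiments 1, 2 and 3, against 53.8, 95 and 67.1 CPM in control embryos. The fold was 1.03 (95% interval 0.89 to 1.2, edgeR adjusted p = 0.97). Ppp1r15a (chr7:45522916-45526268, minus strand) had knockdown medians of 299, 668 and 475 CPM, against 398, 660 and 531 CPM in control embryos, with a fold of 0.908 (95% interval 0.761 to 1.08, edgeR adjusted p = 0.857). Both genes had their highest median in experiment 2 in either arm.

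Asns and Sesn2 are metabolic outputs. Asns encodes asparagine synthetase and Sesn2 encodes sestrin 2, a leucine-binding protein that holds mTORC1 in check. Asns (chr6:7675169-7693254, minus strand) ran from 0 to 37.5 CPM with a median of 8.16 in knockdown embryos, against 0 to 27.5 with a median of 8.90 CPM in control embryos. The fold was 0.958 (95% interval 0.674 to 1.36, edgeR adjusted p = 0.986). Sesn2 (chr4:132492032-132510501, minus strand) had knockdown medians of 295, 543 and 323 CPM in experiments 1, 2 and 3, against 359, 591 and 340 CPM in control embryos. The knockdown median was the lower one in each experiment, and 18 of 55 knockdown embryos lay above the control median of their experiment. The fold was 0.856 (95% interval 0.715 to 1.02), with an unadjusted p of 0.0887 and an edgeR adjusted p of 0.65. The lowest Sesn2 values, 10.8 and 35.4 CPM, were in 2 knockdown embryos of experiment 3 that stood apart, which also had Ppp1r15a of 63.1 and 17.3 CPM, no Asns counts and summed oocyte-deposited transcripts of 14300 and 7240 CPM, against a median of 3440 over knockdown embryos. Without these 2 embryos the log2 fold change of Sesn2 was -0.17, against -0.22 with them, and it did not pass.

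**Figure D2:**
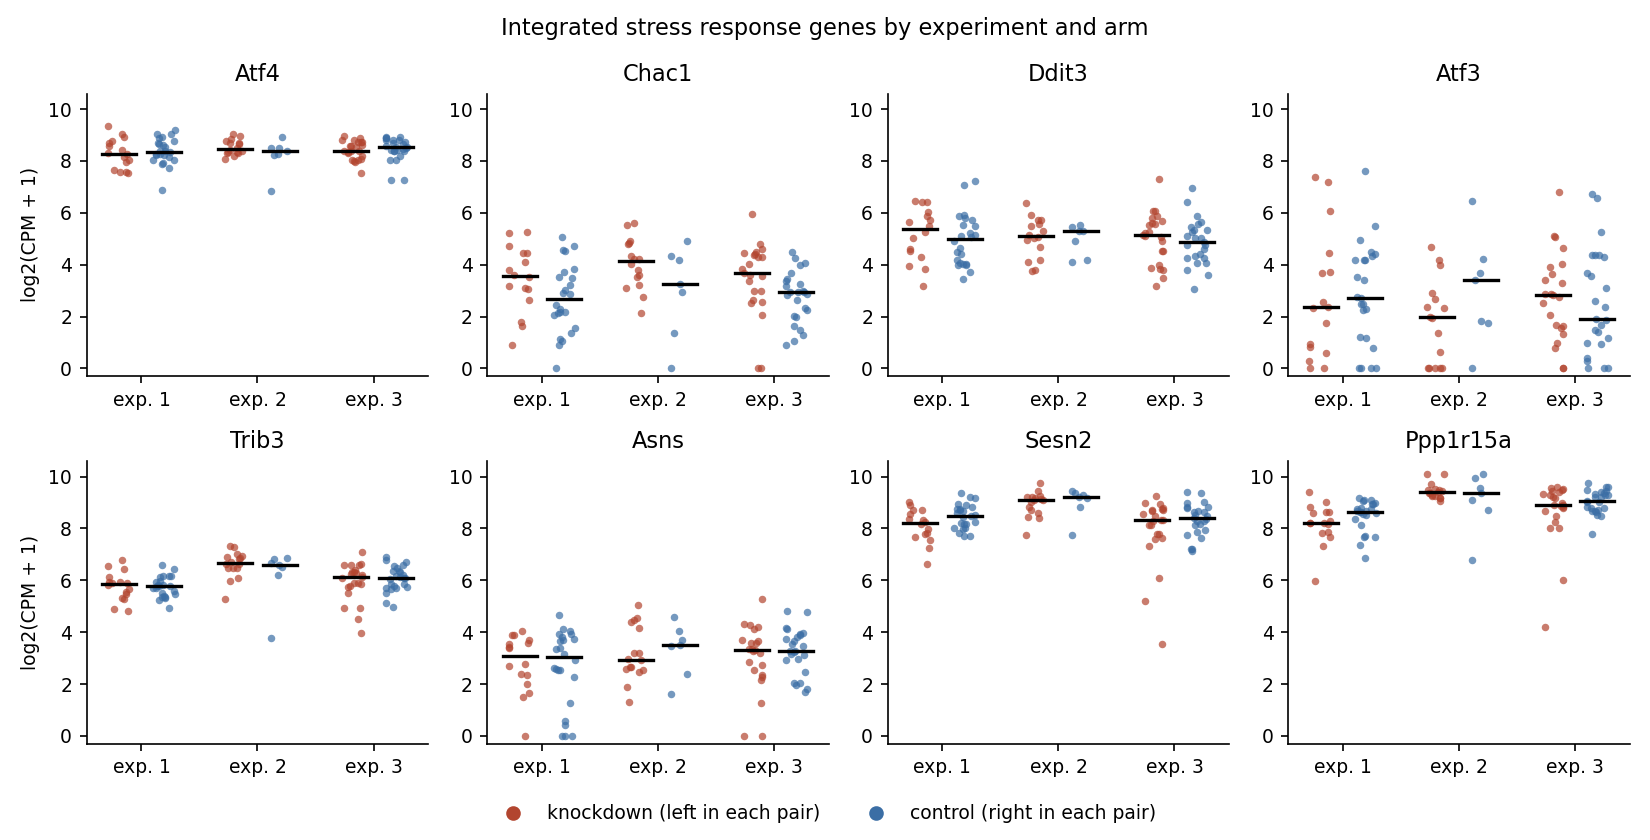
Levels of the 8 genes as log2(CPM + 1) in every embryo, by experiment, with knockdown embryos left of control embryos and lines at the medians. Chac1 has the higher knockdown median in each experiment, Ppp1r15a, Trib3 and Sesn2 lie highest in experiment 2 in both arms, and Atf3 spreads from 0 upward in every group.

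**Figure D3:**
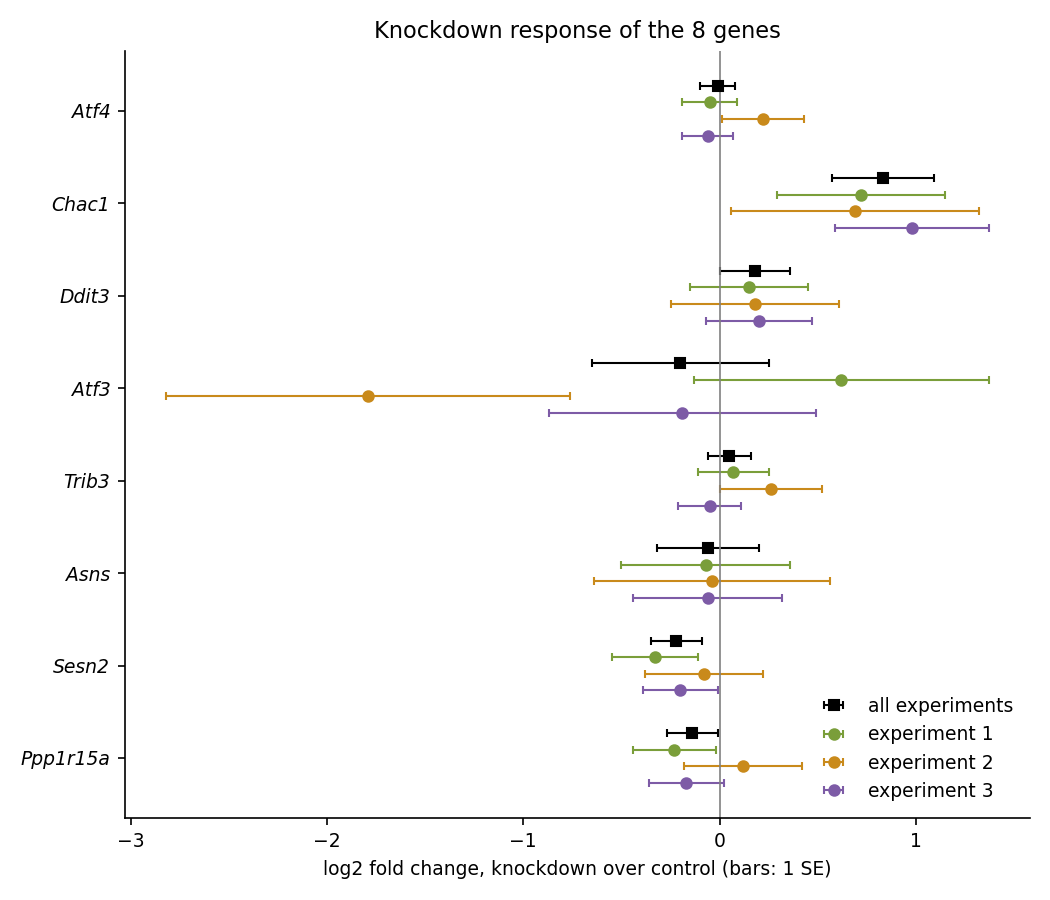
Log2 fold change of knockdown over control embryos (horizontal axis) with bars of 1 SE, over all experiments and within each one. Chac1 lies to the right of 0 in all 4 estimates, from 0.69 to 0.98, and the experiments differ most for Atf3, from -1.79 to 0.62.

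The rest of the pathway was read through lists of genes, described by counts and medians beside the median of 0.019 over all genes tested. Over all genes tested 0.632% were called higher and 0.469% lower. At that share a list of 5 to 20 genes would mostly hold no call, so the absence of calls does not set these lists apart. Of the 20 tested genes of the eIF2 kinases, eIF2, eIF2B and its phosphatases, none was called, with a median log2 fold change of -0.04. The smallest p there belonged to Impact, an inhibitor of the kinase GCN2, which averaged 19.5 ± 26.3 CPM in knockdown and 13.5 ± 9.26 CPM in control embryos (SD, n = 55 and 56; log2 fold change 0.67, SE 0.21, edgeR adjusted p = 0.101). Ppp1r15b, the constitutive paralogue of Ppp1r15a and the gene with the smallest p among 5 tested paralogues, had -0.28 (SE 0.10, edgeR adjusted p = 0.229). Its sign was the same in the 3 experiments, at -0.25, -0.24 and -0.31.

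The amino acid programme that ATF4 serves showed no call either, where 0.632% of all genes tested were called higher and 0.469% lower. None of 14 genes of amino acid synthesis passed, with a median of 0.005, and Gpt2, an alanine aminotransferase, had the smallest p (log2 fold change 0.18, SE 0.07, edgeR adjusted p = 0.299). None of 8 tested amino acid transporters passed, with a median of 0.019 and Slc7a5, a large neutral amino acid carrier, at -0.18 (SE 0.17, edgeR adjusted p = 0.863). None of 20 cytosolic tRNA synthetases passed, with a median of -0.065 and Qars, the glutaminyl-tRNA synthetase, at -0.22 (SE 0.09, edgeR adjusted p = 0.354). Among 11 tested genes of the glutathione cycle, which Chac1 feeds into, none passed and the median was 0.064. Gpx1, a glutathione peroxidase, had the smallest p of these (log2 fold change 0.23, SE 0.12, edgeR adjusted p = 0.571), and the paralogue Chac2 was too low to test.

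Among 12 tested other targets of ATF4 and CHOP none passed, with a median of 0.015 and Ddit4, an mTORC1 inhibitor, at -0.35 (SE 0.14, edgeR adjusted p = 0.32). None of 13 tested bZIP partners and regulators of ATF4 turnover passed, with a median of -0.057 and Nfe2l1, a bZIP factor that controls proteasome genes, at -0.16 (SE 0.06, edgeR adjusted p = 0.216). None of 15 tested genes of the endoplasmic reticulum unfolded protein response passed, with a median of -0.018 and Pdia4, a disulfide isomerase, at -0.32 (SE 0.11, edgeR adjusted p = 0.145).

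Levels were then compared between experiments in control embryos alone as a contrast. Ppp1r15a averaged 654 ± 335 CPM in experiment 2 and 549 ± 157 CPM in experiment 3, against 383 ± 129 CPM in experiment 1 (SD, n = 7, 25 and 24). The log2 differences from experiment 1 were 0.77 (SE 0.27) and 0.52 (SE 0.19), with edgeR adjusted p-values of 0.0789 and 0.0637 in the model of all 6 groups, so neither passed. In these contrasts 4.9% and 9.13% of all genes were called. When control embryos were fitted without knockdown embryos, the differences were 0.79 and 0.54 with edgeR adjusted p-values of 0.0335 and 0.0255, which passed, where 4.7% and 9.05% of genes were called. Trib3 in control embryos differed by 0.64 (SE 0.23) between experiments 2 and 1, with an edgeR adjusted p of 0.0985. None of the 8 genes passed between experiments 3 and 2, where 1.61% of genes were called, and Sesn2 was nearest with a log2 difference of -0.63 (SE 0.28, edgeR adjusted p = 0.32). Knockdown embryos had Ppp1r15a means of 326 ± 148, 712 ± 165 and 489 ± 210 CPM in experiments 1, 2 and 3 (SD, n = 16, 16 and 23).

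No correlation of Chac1 with the other 7 genes passed across embryos. Within each of the 6 groups, log2 CPM of pairs of genes were correlated across embryos, which share library depth and composition within a value. Chac1 was set against the other 7 genes and against Nr5a2, library total, mitochondrial share and number of genes detected, in all 66 correlations. Of these, 7 had an unadjusted permutation p under 0.05 and 0 passed after Benjamini-Hochberg adjustment, with a smallest adjusted p of 0.0851 for Pearson's r and 0.141 for Spearman's rho. That smallest value belonged to the mitochondrial share in control embryos of experiment 1 (r = 0.613, rho = 0.602, n = 24, r = 0.647 without the 2 farthest embryos), while the median r with that share over the 6 groups was 0.119. The median r of Chac1 with the other 7 genes lay between -0.127 with Ppp1r15a and 0.218 with Trib3. Trib3 was the partner with a positive r in 6 of 6 groups, although in control embryos of experiment 3 r was 0.0147 and rho was -0.0669. Chac1 with Nr5a2 had r of 0.0369, -0.35 and 0.45 in knockdown embryos of experiments 1, 2 and 3, against -0.275, 0.411 and -0.426 in control embryos.

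The remaining pairs, and the 8 genes against the summed 2-cell markers, the summed oocyte-deposited transcripts and the mitochondrial share, were added after values had been seen. They made 264 further correlations, of which 42 passed after adjustment for Pearson's r and 20 for Spearman's rho. How often pairs of other genes would pass was not tested, so these counts do not set the 8 genes apart. Ddit3 and Atf3 varied together, with a positive r in 6 of 6 groups, a median of 0.623 and a range of 0.557 to 0.733. The largest group, control embryos of experiment 3, gave r = 0.671 and rho = 0.682 (n = 25, permutation adjusted p = 0.00672 and 0.00768), and r = 0.707 without the 2 embryos farthest from the median. In control embryos of experiments 1 and 2, r was 0.557 and 0.733, and without the 2 farthest embryos it was 0.405 and 0.0848. Knockdown embryos of experiment 3 gave r = 0.6 and rho = 0.523 (n = 23, permutation adjusted p = 0.028 and 0.0885). In all, 4 of 6 groups passed by r and 1 by rho.

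Atf3 ran against Sesn2, with a negative r in 6 of 6 groups and a median of -0.608. Control embryos gave r = -0.721 in experiment 1 (rho = -0.706, n = 24, permutation adjusted p = 0.00302 and 0.00704) and r = -0.69 in experiment 3 (rho = -0.674, n = 25, permutation adjusted p = 0.00381 and 0.00768). Without the 2 farthest embryos these were -0.634 and -0.624, while the r of -0.643 among the 7 control embryos of experiment 2 was 0.714 without the 2 farthest. In knockdown embryos r was -0.573, -0.373 and -0.517 in experiments 1, 2 and 3, and none of these passed, with permutation adjusted p-values of 0.0908, 0.329 and 0.0636. Whether the relation differs between the arms was not tested. Sesn2 in turn had a positive r with Trib3 in 6 of 6 groups (median 0.646, 2 groups passing by r and 1 by rho) and with Atf4 in 6 of 6 groups (median 0.586, 3 groups by r and 1 by rho). Without the 2 farthest embryos, the r of Atf4 with Sesn2 was 0.249 in place of 0.561 in knockdown embryos of experiment 3, a group that passed by r, and -0.341 in place of 0.891 in control embryos of experiment 2. For Trib3 with Sesn2 it was 0.361 in place of 0.693 in knockdown embryos of experiment 2, which passed by r, and 0.194 in place of 0.936 in control embryos of experiment 2. Leaving out the 7 embryos that stood apart gave medians of 0.531 for Ddit3 with Atf3, -0.513 for Atf3 with Sesn2, 0.47 for Trib3 with Sesn2 and 0.415 for Atf4 with Sesn2. The median r of Trib3 with Ppp1r15a, 0.525 over all embryos, was -0.112 without those 7 embryos.

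**Figure D4:**
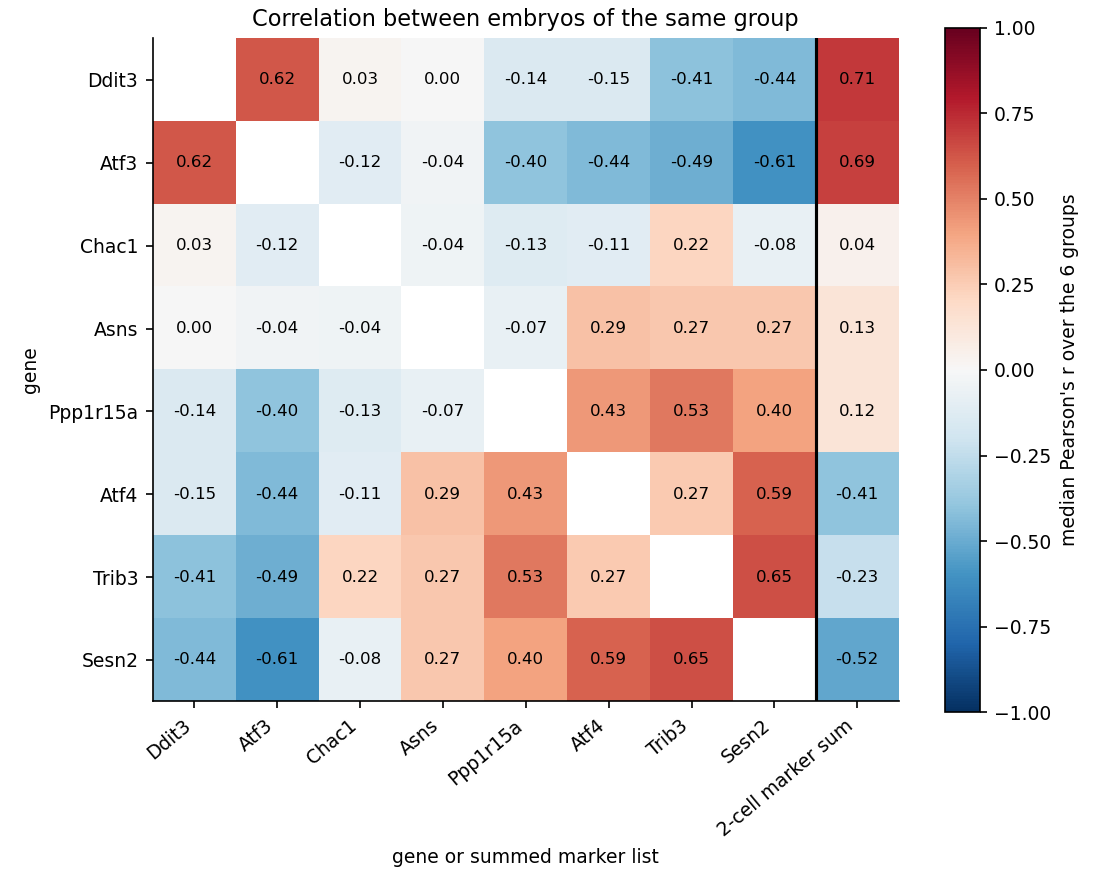
Median Pearson's r over the 6 groups for each pair of genes and, right of the line, for each gene with the summed 2-cell markers. Ddit3 and Atf3 are positive with each other (0.62) and with the markers (0.71 and 0.69). By this median both are negative with Trib3, Sesn2, Atf4 and Ppp1r15a, while Chac1 lies between -0.13 and 0.22 with every other gene.

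Ddit3 and Atf3 also followed the summed RNA of the 2-cell markers, a transient burst of embryonic transcripts. How many other genes follow this sum was not tested, so the relation is not shown to be particular to Ddit3 and Atf3. For Atf3 the r was between 0.633 and 0.867 in the 6 groups, and 5 of 6 passed by r and by rho. Knockdown embryos gave r = 0.867, 0.651 and 0.633 in experiments 1, 2 and 3, with permutation adjusted p-values of 0.00158, 0.0455 and 0.0197. Control embryos gave 0.722, 0.819 and 0.642, with permutation adjusted p-values of 0.00302, 0.0968 and 0.013. The group that did not pass was the control group of experiment 2 with 7 embryos. For Ddit3 the r was between 0.592 and 0.855, with 5 of 6 groups passing by r and 4 by rho, and 0.865 was left in control embryos of experiment 3 without the 2 farthest embryos. In control embryos of experiment 2 the Ddit3 value of 0.721 rested on 2 of the 7 embryos and was -0.653 without them. Sesn2 had a negative r with the markers in 6 of 6 groups, with a median of -0.518 and 2 groups passing by r and by rho. Atf4 was also negative with the markers in 6 of 6 groups, with a median of -0.406 and 0 groups passing. The r of Sesn2 with the summed oocyte-deposited transcripts was also negative in 6 of 6 groups, with a median of -0.555. Only knockdown embryos of experiment 3 passed there, by r and by rho, with r = -0.911, and -0.647 without the 2 farthest embryos. Trib3 and Atf4 were also negative with these transcripts in 6 of 6 groups (medians -0.36 and -0.308). Chac1, Ddit3, Atf3, Asns and Ppp1r15a had both signs. Chac1 had a median r of 0.0402 with the markers, positive in 3 of 6 groups, and none passed. With the mitochondrial share, Ddit3, Sesn2 and Ppp1r15a each had 1 group passing by r, and Atf4, Atf3, Trib3 and Asns had 0. In control embryos of experiment 1 r was 0.626 for Ddit3 and -0.583 for Sesn2 (permutation adjusted p = 0.0193 and 0.0285). Ppp1r15a had -0.623 in knockdown embryos of experiment 3 (permutation adjusted p = 0.0391). Each of these genes had both signs over the 6 groups.

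**Figure D5:**
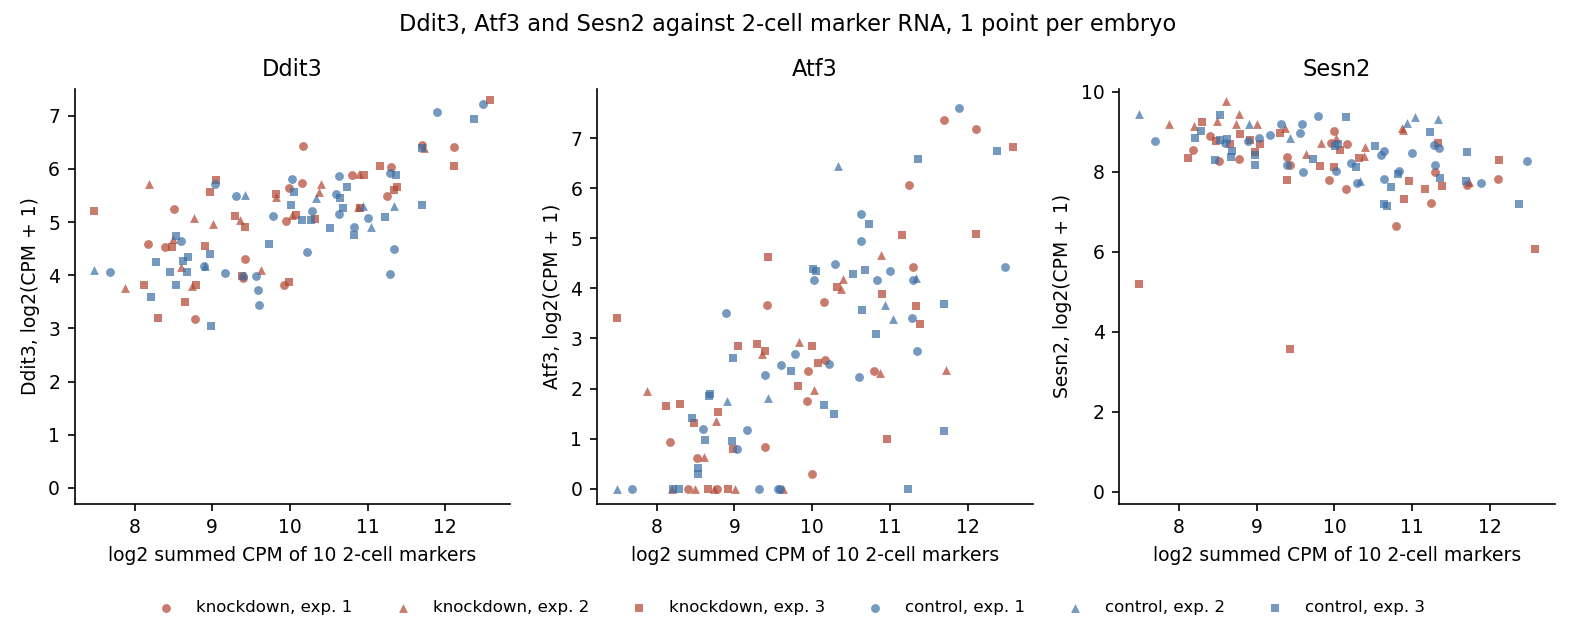
Log2(CPM + 1) of Ddit3, Atf3 and Sesn2 (vertical axes) against the log2 of the summed CPM of 10 2-cell markers in every embryo, coloured by arm and shaped by experiment. Ddit3 and Atf3 are mostly higher where marker RNA is higher in both arms, although 1 control embryo of experiment 3 with Atf3 at 0 had a marker sum of 2400 CPM, and the 2 lowest Sesn2 values are the 2 knockdown embryos of experiment 3 that stood apart.

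The genes whose levels were most like those of each gene were taken among 9181 genes, by the median r over the 6 groups. For Sesn2 they were Tor1b (0.921), Surf6 (0.907) and Slc25a25 (0.906), and for Atf3 they were Hspb8 (0.847), Klf10 (0.783) and Cyp4f39 (0.774). For Ddit3 they were Rnd1 (0.76), Eif1ad8 (0.748) and Arg2 (0.727), and for Atf4 they were Rpl36 (0.79), H2az1 (0.775) and Psmd14 (0.773). Trib3 was nearest to Knl1 (0.796), Slc19a3 (0.788) and Cdca8 (0.785), each with a negative r in at least 1 group (lowest r -0.0921, -0.0585 and -0.0382 in that order). Ppp1r15a was nearest to Rbm8a2 (0.867) and to Ubl5b and Ubl5c (0.849 each), a pair with the same values that the counting could not tell apart. Asns was nearest to Ctu2 (0.587), Lnpk (0.564) and Smc2 (0.563). Chac1 had weaker neighbours, among them Eif3j1 (0.494, range 0.179 to 0.742) and Bcl7b (0.438), of which Bcl7b had a negative r in at least 1 group. None of the 8 genes was among the 3 nearest of another.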

How the data were processed

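Polyadenylated RNA of single 2-cell embryos was measured by SmartSeq2 with oligo dT priming, per the labels, so libraries carry neither molecular identifiers nor strand. Tools named in the submitters' processing notes are kallisto 0.46.1, Trim Galore 0.6.2, bcl2fastq, DESeq2 1.32.0 and R 3.5.1. The same notes list hg19 beside mm10 and assign neither to a step, and the sources used here do not give the transcript annotation. Values analysed were estimated counts (expected counts) of each transcript as the authors deposited them, before any normalization. The authors also deposited a batch-adjusted table of rounded values, without a stated method, which served here as a score in 1 alternative. From their DESeq2 tables, log2 fold changes and p-values (adjusted) were copied as the authors deposited them. The Nr5a2 row showed that their sign is knockdown over control. The deposited normalized table was not used here.

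Of 119358 transcripts, 117282 took their gene from the authors' deposited table and 379 from GENCODE M21. A further 1692, a median of 0.566% of counts, were left out, as were 2 rows of the injected reporter, and 3 repeat or whole-gene rows were kept as features of their own. Sums per gene were rounded. The median total was 4.78 M counts, no libraries were identical, and the highest r between libraries was 0.927. Arm and experiment came from the labels. The control embryo numbered 1 in experiment 2 was not analysed here.

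Testing used edgeR 4.0.16 in R 4.3.3 (with limma 3.58.1 and DESeq2 1.42.0 for alternatives). Genes were filtered with filterByExpr by arm, scaled by TMM and tested with the quasi-likelihood test, with experiment as a factor and 107 residual degrees of freedom. P-values were adjusted by Benjamini-Hochberg, with a threshold of 0.05. CPM use TMM-scaled totals, and correlations use log2 CPM with a prior count of 2. A model of 6 groups gave the tests within experiments, between control groups and of interaction. On data simulated for the comparison of knockdown with control (13447 genes), 57% of 100 genes changed 1.5-fold and 86% of 100 genes changed 2-fold were called. The changed genes were drawn at random, so these shares need not hold for the more variable members. The coefficients of biological variation of Chac1, Asns and Atf3 were 0.877, 0.854 and 1.63, at percentiles 86.6, 85.5 and 99.1 of the genes. Correlation p-values are two-sided, from 100000 permutations, or from all orders in the group of 7. The smallest p that the permutations can give is 1e-05.

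The members, gene lists and tests were chosen with earlier results of these data known. Named genes are the 8 members, up to 3 called genes or else the gene with the smallest p of each list, the 3 nearest genes of each member by median r, and Nr5a2. One nearest gene of Chac1 is not reported here. H2bc21 and Prr15 were chosen after their values were seen. Alternatives tried were other scalings, filters, tools, subsets of embryos, a replicate block and counts summed by group.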

Additional observations from a re-analysis of the deposited data

Results flagged for a closer look

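Control embryo 2 of experiment 2 lay far from the other 6 control embryos of its group for 2 of the 8 genes. It had 86.6 CPM of Atf3, with the next highest embryo of that group well below it, so that the gap was 0.799 of the whole range, and 12.7 CPM of Trib3, with a gap of 0.585 of the range. Both gaps exceed the critical value of Dixon's test for 7 values. For normally distributed values chance alone exceeds it in about 1 of 20 groups, and 8 genes were examined in this group. CPM were used without a log, and Atf3 lay low in most embryos and very high in a few, so that rate need not hold for Atf3. The same embryo had no Chac1 counts, a library total of 2.16 M counts and a median r of 0.727 with the other libraries, and is among the 7 that stood apart. The part of these measures in its Atf3 and Trib3 values was not tested. Groups of more than 10 embryos were not examined in this way.

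Of all genes tested, 2 had knockdown responses that differed between experiments in the interaction test, and neither is among the 8. H2bc21, a histone H2B gene, had log2 fold changes of 5.98, -1.21 and -1.49 in experiments 1, 2 and 3 (edgeR adjusted p = 1.73e-18). The injected markers, H2B-rsEGFP and H2B-EGFP, differed between the arms, so for H2bc21 marker and knockdown cannot be told apart. Whether marker RNA was counted to H2bc21 was not tested. Prr15 had 1.02, -0.72 and 0.32 (edgeR adjusted p = 0.0366).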

How the results depend on the processing

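Each of the 8 log2 fold changes was recomputed under 14 alternatives. Chac1, Ddit3, Asns, Sesn2 and Ppp1r15a kept their direction in all of them, and no gene of the 8 passed except Chac1 with DESeq2. Atf4, at -0.01, was 0.0032 with RLE factors, 0.003 with DESeq2, 0.0043 with limma-voom, 0.0039 with counts summed by group, 0.016 without experiment 1, 0.05 without experiment 3, and 0.012 and 0.015 without the 2 and the 7 embryos that stood apart, the last 2 being chosen after seeing the data. Atf3, at -0.20, was 0.13 with limma-voom and 0.19 without experiment 2. Trib3, at 0.05, was -0.11 on the authors' batch-adjusted values. The cause was not tested.

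Over all genes, 85 were called higher and 63 lower. Higher calls numbered 574 with no low-count filter, 141 with DESeq2, 14 without experiment 1, 136 without experiment 2, 27 without experiment 3, 5 on the batch-adjusted values and 2 on summed counts, which leave 6 samples. Lower calls numbered 391 with no filter, 98 with limma-voom, 9 without experiment 1, 11 without experiment 3 and 1 on summed counts. The interaction test called 2 genes, 7 with library totals and 528 with no filter. With the replicate block, which pairs embryos by number, 14 genes were called higher and 9 lower, and no gene of the 8 passed. The labels give the numbers no meaning, and same-numbered embryos did not deviate together (median r 0.0293, 0.012 and 0.0586 in experiments 1, 2 and 3). An embryo correlated best with its own number in 2 of 16, 3 of 7 and 0 of 23 pairs. The number of correlations with Chac1 that passed was 0 under both alternatives tried.

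Chac1, Atf3 and Asns are low, with medians of 8.52, 4.53 and 8.54 CPM over all embryos, so that their values in single embryos rest on few counts. The libraries carry no molecular identifiers, so the limits given for counts of 0 cover counting error only, while the intervals of the folds include the spread between embryos.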
